A study of Rattus norvegicus with 6 samples.

Results

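Of 32445 circular RNAs (circRNAs) in rat thalamus, 686 (2.11%) had a neighbour with a nearly identical back-splice junction. The rule asked for another circRNA on the same chromosome and strand, with a start within 10 nt and an end within 10 nt. These 686 circRNAs formed 340 clusters, of which 336 held 2 circRNAs, 2 held 3 and 2 held 4, and they made 351 pairs. The reads came from thalamus of 6 rats whose temporomandibular joints were injected on both sides with 50 uL, 2 injections a week, and whose tissue was taken after 14 days. In the CFA group (complete Freund's adjuvant, an oil emulsion that causes lasting joint inflammation) there were 3 rats, and in the saline group there were 3. The series describes them as separate animals, each giving 1 library, while the labels give no strain, sex or age. The libraries held 573696 to 1176178 circRNA reads. No file used here ties a circle to a gene, so circles are named by position, host genes are left out, and the tissue label could not be checked against marker genes. The positions are those of the deposited sequence file, and no label or header names their genome build.

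A circRNA forms when a splice donor is joined to an acceptor that lies upstream of it, which closes the exons between them into a ring without free ends. Such rings resist exonucleases and accumulate in the brain, in neurons above all. An intron usually ends in AG and begins with GT, and where a further AG or GT lies a few bases away the spliceosome can use either site. The best known case is the NAGNAG tandem acceptor, where both AGs lie 3 nt apart and the choice adds or removes a codon. A shift that is a multiple of 3 keeps the reading frame of a linear mRNA, and other shifts change it.

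Each junction was described by the last 29 nt of the circle followed by its first 29 nt, as the deposited sequence file gives them, 5′ to 3′. In pairs that differ at 1 end the outer circle is the one with the longer genomic span and the inner circle the one with the shorter span. In the pairs printed here the capitals mark the bases that the outer circle has and the inner circle lacks, and these bases are what separates the 2 junctions. The pairs were chosen for the results that follow. They hold a stable minor acceptor on chromosome 16 and an acceptor on chromosome 8 used by circles with different donors. A 6 nt acceptor shift on chromosome 5 follows, then a pair on chromosome 6 where the junction with more reads changed between libraries. Last are the chromosome 6 pair with the only member that passed the CFA test, and tandem donors on chromosomes 7 and 9.
chr16:23555919-23600154 (+), outer: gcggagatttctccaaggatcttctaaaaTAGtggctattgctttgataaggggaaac
chr16:23555922-23600154 (+), inner: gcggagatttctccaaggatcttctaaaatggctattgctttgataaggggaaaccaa
chr8:23035955-23048640 (-), outer: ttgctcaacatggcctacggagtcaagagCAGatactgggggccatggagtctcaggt
chr8:23035955-23048637 (-), inner: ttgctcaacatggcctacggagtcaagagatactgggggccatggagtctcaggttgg
chr8:23048110-23048640 (-), outer: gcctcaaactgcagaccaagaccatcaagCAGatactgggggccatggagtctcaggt
chr8:23048110-23048637 (-), inner: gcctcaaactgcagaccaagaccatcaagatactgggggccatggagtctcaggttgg
chr5:136420692-136447778 (+), outer: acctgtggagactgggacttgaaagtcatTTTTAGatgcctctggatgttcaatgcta
chr5:136420698-136447778 (+), inner: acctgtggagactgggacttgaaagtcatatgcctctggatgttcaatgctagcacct
chr6:131912740-131913105 (-), outer: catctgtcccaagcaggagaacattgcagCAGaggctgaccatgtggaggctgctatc
chr6:131912740-131913102 (-), inner: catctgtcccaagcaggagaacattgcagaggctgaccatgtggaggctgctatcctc
chr6:15082851-15085804 (-), outer: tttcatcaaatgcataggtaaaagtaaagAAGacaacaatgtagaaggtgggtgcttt
chr6:15082851-15085801 (-), inner: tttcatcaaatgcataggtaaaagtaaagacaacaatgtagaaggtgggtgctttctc
chr7:30727478-30735186 (+), outer: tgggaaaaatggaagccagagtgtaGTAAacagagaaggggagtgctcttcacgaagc
chr7:30727478-30735182 (+), inner: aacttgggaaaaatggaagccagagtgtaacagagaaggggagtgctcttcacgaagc
chr9:94463647-94481167 (+), outer: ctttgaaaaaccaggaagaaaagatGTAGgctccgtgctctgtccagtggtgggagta
chr9:94463647-94481163 (+), inner: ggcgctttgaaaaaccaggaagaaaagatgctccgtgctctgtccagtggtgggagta

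Most pairs differed at 1 end only. Of the 351 pairs, 269 differed at the acceptor end and 63 at the donor end, which together made 94.6%. In 3 pairs both ends differed, 7 pairs had the same positions under 2 identifiers, and 9 pairs involved an identifier listed at 2 junctions, which were left out of the accounts by offset. Of the 7 pairs with the same positions, 3 also had the same spliced sequence, so nothing in the sequence file separates them. The trailing identifier held 2 to 18 reads in these 7 pairs and the leading one 45 to 909.

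At the acceptor end the shift was most often 3 nt. This held for 135 of 269 pairs (50.2%), followed by 70 pairs at 4 nt and 39 at 5 nt, while each offset between 6 and 10 nt had 3 to 8 pairs. Multiples of 3 made 54.7% of the acceptor pairs (147 of 269), and this share rested on the 3 nt offset. Beside its 135 pairs there were 8 at 6 nt and 4 at 9 nt. At 11 to 30 nt, outside the rule, the share of multiples of 3 among acceptor pairs was 37.2%, and no single offset stood out. At the donor end the most frequent shift was 4 nt with 19 of 63 pairs, ahead of 6 nt with 10 pairs, and multiples of 3 made 33.3% of the donor pairs, against 48.8% at 11 to 30 nt. No pair of identifiers that are each listed at 1 junction lay 1 or 2 nt apart.

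**Figure D1:**
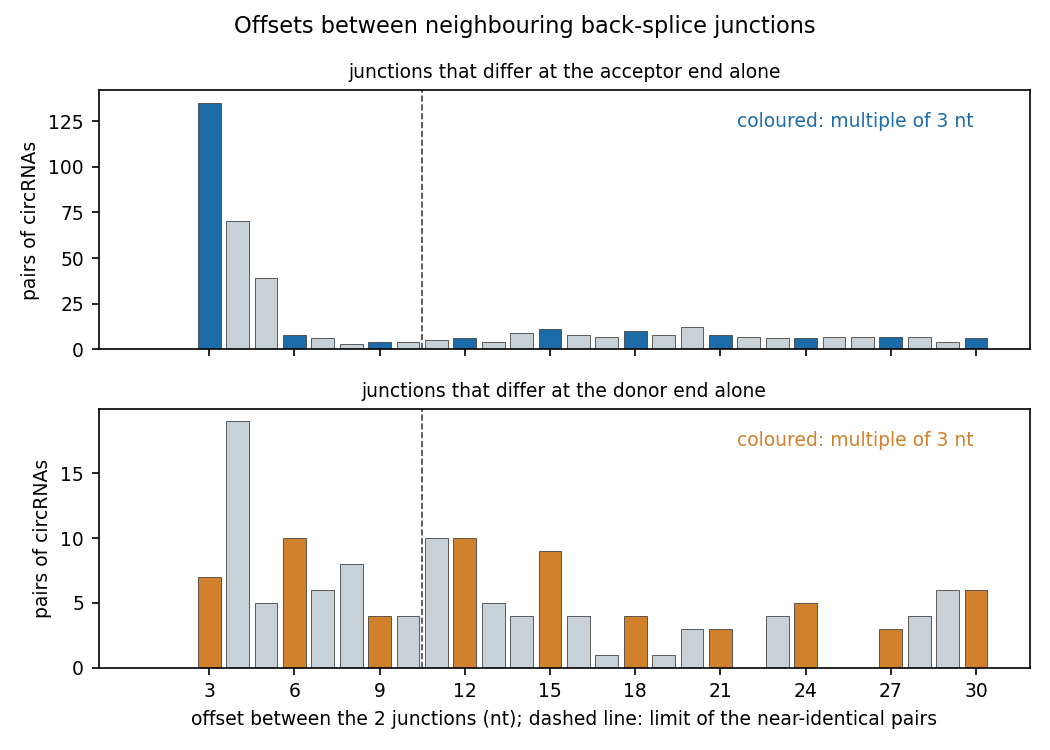
Number of circRNA pairs (y axis) by the offset in nt between their junctions (x axis), for pairs that differ at the acceptor end alone (top) and at the donor end alone (bottom). Multiples of 3 are coloured, and the dashed line marks the 10 nt limit of the near-identical pairs. The acceptor panel is led by 135 pairs at 3 nt and the donor panel by 19 pairs at 4 nt.

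The extra bases carried the splice dinucleotides in every pair. Extra bases at an acceptor end lie just before the inner circle's first base, and those at a donor end just after its last base, so they hold the splice site of the inner junction. At the acceptor end they ended in AG in 269 of 269 pairs, and at the donor end they began with GT in 63 of 63 pairs. Within the circles of the whole series AG made 8.54% of all dinucleotide positions and GT 4.87%. Pairs 11 to 30 nt apart also carried AG or GT at that place without exception. A circRNA caller that accepts only junctions flanked by GT and AG would give the same count, and neither labels nor headers name the caller. An acceptor shift moved the letters after the junction, and a donor shift moved those before it. For acceptor pairs the outer and inner 58 nt sequences thus differed at a median of 21 positions (range 3 to 26). For donor pairs the median was also 21 (range 14 to 27).

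Among acceptor pairs 3 nt apart, CAG was the usual extra triplet. It was found in 89 of 135 pairs, followed by TAG in 23, AAG in 20 and GAG in 3. Pairs on chromosomes 8 and 6 printed here carry CAG, the pair on chromosome 16 carries TAG and the pair at chr6:15082851-15085804 carries AAG.

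Near-identical circRNAs had more reads by their median than the rest of the table. Their median was 42.5 reads over the 6 libraries (quartiles 11 and 212), against 21 reads for the other 31759 circRNAs (quartiles 8 and 71). They were seen in all 6 libraries in 41.0% of cases, against 25.4% for the others, and in only 1 library in 19.7%, against 29.3%. In each library the share of near-identical circRNAs with reads exceeded the share of the other circRNAs by 9.71 to 13.6 percentage points, with a mean of 11.4 ± 1.86 (SD, n = 6; higher in 6 of 6 libraries). The same circRNAs are compared in every library, so these 6 differences are not independent evidence about the set, and they are given as a description. Both sets were similar in size, with a median spliced length of 414.5 nt for near-identical circRNAs and 384 nt for the others.

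Within a pair the reads were unequal. In the 333 clusters of 2 circRNAs without a tie, the leading circle had a median of 146 reads and the trailing circle 15. The leading circle was seen in all 6 libraries in 221 clusters (66.4%) and the trailing circle in 56 (16.8%), and 115 trailing circles were seen in 1 library only. The circRNAs outside the set had a median of 21 reads, and 25.4% were seen in all 6 libraries. Trailing circles lay below both values. They were picked as the circle with fewer reads in each pair, which lowers both values by itself, so this is a description only. In the 314 clusters of 2 with at least 20 reads the trailing circle held a median of 9.21% of the pair's reads (quartiles 2.94% and 21.7%). The lowest count above 0 in the table is 2, so a listed 0 for a trailing circle may stand for 1 read.

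The outer junction led most acceptor pairs but not most donor pairs. Of 249 acceptor pairs with at least 20 reads, the outer circle led 192 (77.1%), the inner circle 56, and 1 was tied. Among 59 donor pairs the outer circle led 29 (49.2%), the inner circle 29, and 1 was tied. Taken library by library, the outer circle led 77.4% to 81.2% of acceptor pairs and 43.8% to 58.3% of donor pairs, so these ranges did not overlap in the 6 libraries. The libraries share the same pairs, so this is a description and was not tested.

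**Figure D2:**
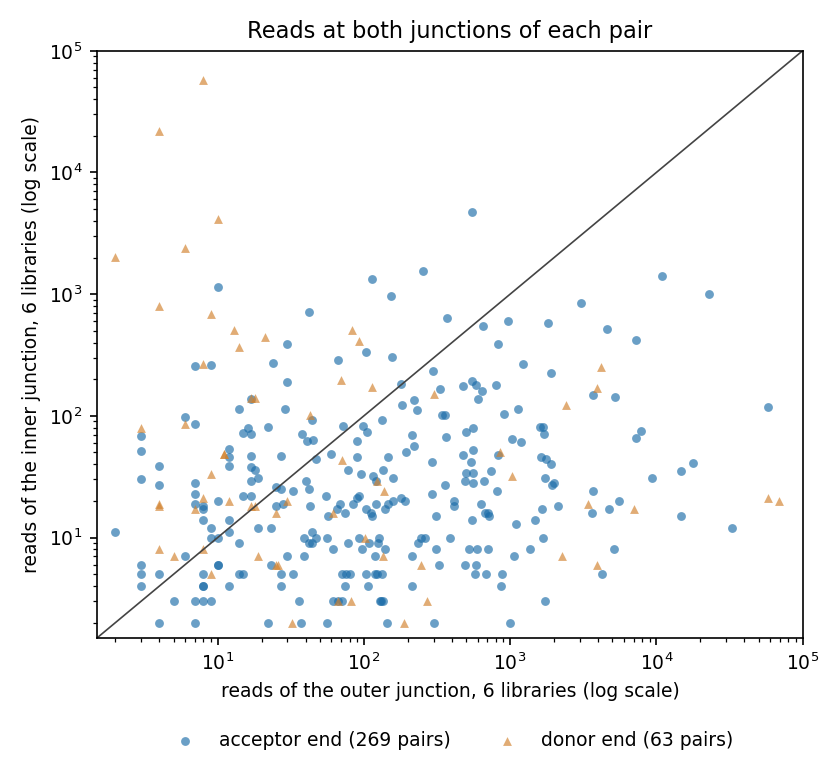
Reads over the 6 libraries of the outer junction (x axis, log scale) and the inner junction (y axis, log scale) for 269 acceptor-end pairs (circles) and 63 donor-end pairs (triangles). The diagonal marks equal reads. More acceptor pairs lie below the diagonal, where the outer junction leads (192 of 249 with at least 20 reads), than above it, while donor pairs lie on both sides (29 each).

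The leading side varied with the offset. At the acceptor end the inner circle led 40 of 123 pairs at 3 nt (32.5%), 6 of 68 at 4 nt (8.82%), 7 of 35 at 5 nt (20%) and 0 of 8 at 6 nt. Over all acceptor pairs the inner circle led 30.4% of those at multiples of 3 and 13.2% of the others. The median share of the trailing circle was 13.8% and 6.01% in these classes. Pairs at 3 nt made 123 of the 135 pairs at multiples of 3, so the first class mostly describes them. At 6 nt and 9 nt the inner circle led 0 of 8 and 1 of 4 pairs, with median trailing shares of 2.75% and 2.18%. The inner circle led 25.9% to 30.8% of pairs at multiples of 3 in any 1 library and 10.2% to 18.2% of the others. At the donor end the inner circle led 2 of 6 pairs at 3 nt and 6 of 17 at 4 nt. It led 2 of 5 pairs at 5 nt, 5 of 10 at 6 nt and 2 of 6 at 7 nt. It led 6 of 7 pairs at 8 nt, 2 of 4 at 9 nt and 4 of 4 at 10 nt. Over all donor pairs the inner circle led 45% of those at multiples of 3 and 51.3% of the others. Their median trailing shares were 5.74% and 5.88%.

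The base before AG in the extra triplet went with different splits. Among 3 nt acceptor pairs with at least 20 reads, the inner circle led 32 of 78 pairs with CAG (41.0%), 6 of 23 with TAG (26.1%), 2 of 19 with AAG and 0 of 3 with GAG. The median share of the inner circle was 33.5% for CAG, 19.3% for TAG, 6.58% for AAG and 0.329% for GAG. By library the inner circle led 36.1% to 44.1% of the CAG pairs, 15.8% to 31.6% of the TAG pairs and 5.56% to 16.7% of the AAG pairs. The order of the medians was therefore CAG, TAG, AAG and GAG, with few pairs behind all but CAG, and no test of the difference between classes was run.

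In most pairs 1 junction led in every library. In 210 clusters of 2 with at least 20 reads and at least 5 in each library, the same junction led in all 6 libraries in 179 (85.2%). These clusters were not filtered by kind of pair, so pairs with the same positions or an identifier listed at 2 junctions could enter. There the leader is an identifier and not a single junction. The most frequent leader led 5 libraries in 19 pairs, 4 libraries in 8 and 3 libraries in 4, and both junctions led at least 1 library in 29 pairs. The constancy fell with the evenness of the split. Pairs with a trailing share under 1% kept 1 leader in 36 of 36 cases, those from 1% to 5% in 67 of 67, those from 5% to 10% in 27 of 28 and those from 10% to 25% in 41 of 48. Pairs from 25% to 40% kept 1 leader in 7 of 19 cases and pairs from 40% to 50% in 1 of 12. The trailing share and the leaders come from the same reads, so a pair with a low trailing share has little room to change its leader. The fall is therefore partly built into the classes. Counting error alone moves a leader more easily when the split is even, and its part was not tested.

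**Figure D3:**
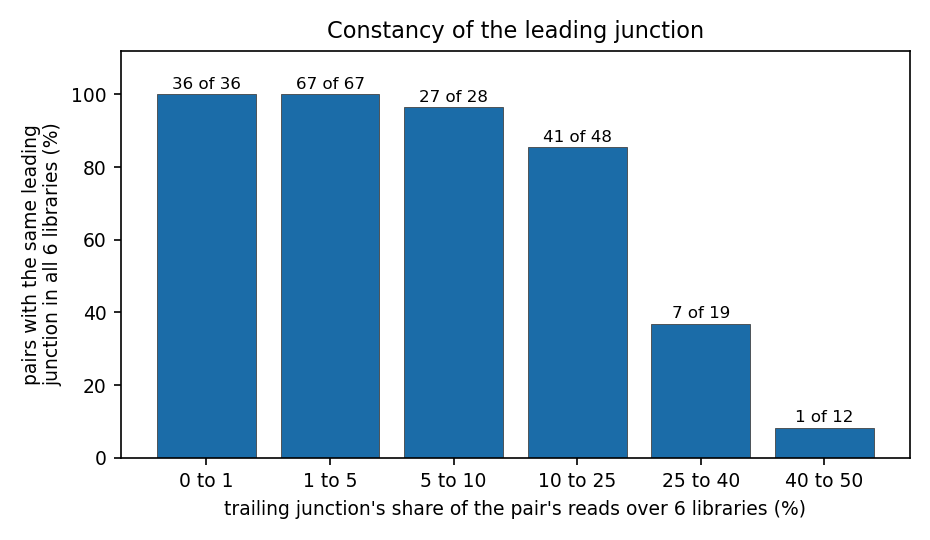
Percentage of pairs with 1 leading junction in all 6 libraries (y axis) by the trailing junction's share of the pair's reads (x axis, %). The pairs are 210 clusters of 2 circRNAs, of any kind of pair, with at least 20 reads and 5 in each library. Numbers over the bars give the pairs with a constant leader of all pairs in the class, which run from 36 of 36 under 1% to 1 of 12 above 40%.

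The spread of the split across animals was taken from the pairs with the most reads. In 59 clusters of 2 that differ at 1 end and have at least 100 reads in every library, the trailing share spanned a median of 2.61 percentage points between the lowest and highest library, under 5 points in 38 pairs, and the same junction led all 6 libraries in 57. The trailing share was low in most of these, with a median of 2.07%, and the trailing junction was listed at 0 in at least 1 library in 36 of 59. In the 12 of them with a trailing share of at least 10% the median range was 8.74 points and the widest 34.4.

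The steadiest pair with a minor junction of many reads was the TAG tandem acceptor on chromosome 16 at chr16:23555919-23600154. The inner circle had 122, 177 and 200 reads in CFA libraries 1, 2 and 3, and 105, 261 and 129 in saline libraries 1, 2 and 3. The outer circle had 2937, 3879 and 4586 reads in the CFA libraries, and 2470, 5584 and 3402 in the saline libraries. The inner share averaged 4.18% ± 0.188 in CFA rats and 4.07% ± 0.406 in saline rats (SD, n = 3 each), so the groups overlapped. The highest share was 4.46% in saline library 2 (95% Wilson interval 3.96% to 5.03%) and the lowest was 3.65% in saline library 3 (3.08% to 4.32%). The intervals of these 2 libraries overlapped. Such intervals cover counting error only, since the reads carry no molecular identifiers.

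On chromosome 8 the same CAG tandem acceptor served circles of different length. For chr8:23035955-23048640, the inner circle had 174, 116 and 336 reads in the CFA libraries and 174, 384 and 234 in the saline libraries. Its share averaged 11.3% ± 1.17 in CFA rats and 11.7% ± 1.66 in saline rats (SD, n = 3 each). The shorter circle chr8:23048110-23048640 uses the same tandem acceptor with another donor: the printed bases after the junction are shared by both circles and those before it differ. There the inner circle had 104, 56 and 129 reads in the CFA libraries and 109, 91 and 93 in the saline libraries. Its share averaged 23.9% ± 2.74 in CFA rats and 25.7% ± 7.52 in saline rats (SD, n = 3 each). The lowest share of this shorter circle, 17.0%, was above the highest of the longer one, 13.6%, so these 2 circles had different splits at 1 acceptor in all 6 libraries. Another pair at this acceptor, chr8:23037219-23048640 with 806 reads, overlapped both. Its inner share averaged 15.3% ± 6.04 in CFA rats and 19.1% ± 9.42 in saline rats (SD, n = 3 each).

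The 6 nt acceptor shift at chr5:136420692-136447778 was also minor in every library. The inner circle had 78, 136 and 103 reads in the CFA libraries and 97, 283 and 148 in the saline libraries, beside 358, 410 and 507 reads of the outer circle in the CFA libraries and 315, 918 and 538 in the saline libraries. The inner share averaged 19.9% ± 4.37 in CFA rats and 22.9% ± 1.14 in saline rats (SD, n = 3 each), and the groups overlapped.

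Of the pairs whose leader changed between libraries, the 4 with the most reads in their shallowest library were taken as examples, and all 4 were CAG acceptors 3 nt apart. At chr6:131912740-131913105 the inner circle had 45, 147 and 105 reads in the CFA libraries and 28, 91 and 181 in the saline libraries, and led only CFA library 3. Its share averaged 43.5% ± 8.55 in CFA rats and 31.2% ± 11.04 in saline rats (SD, n = 3 each). At chr3:104886422-104902580 the inner share averaged 41.4% ± 9.44 in CFA rats and 48.2% ± 4.79 in saline rats, and at chr7:31625232-31658885 it averaged 60.9% ± 4.92 in CFA rats and 59.6% ± 13.0 in saline rats. At chr15:60728532-60733298 it averaged 51.3% ± 11.99 in CFA rats and 52.2% ± 3.66 in saline rats. The shares of CFA and saline rats overlapped in all 4 pairs.

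**Figure D4:**
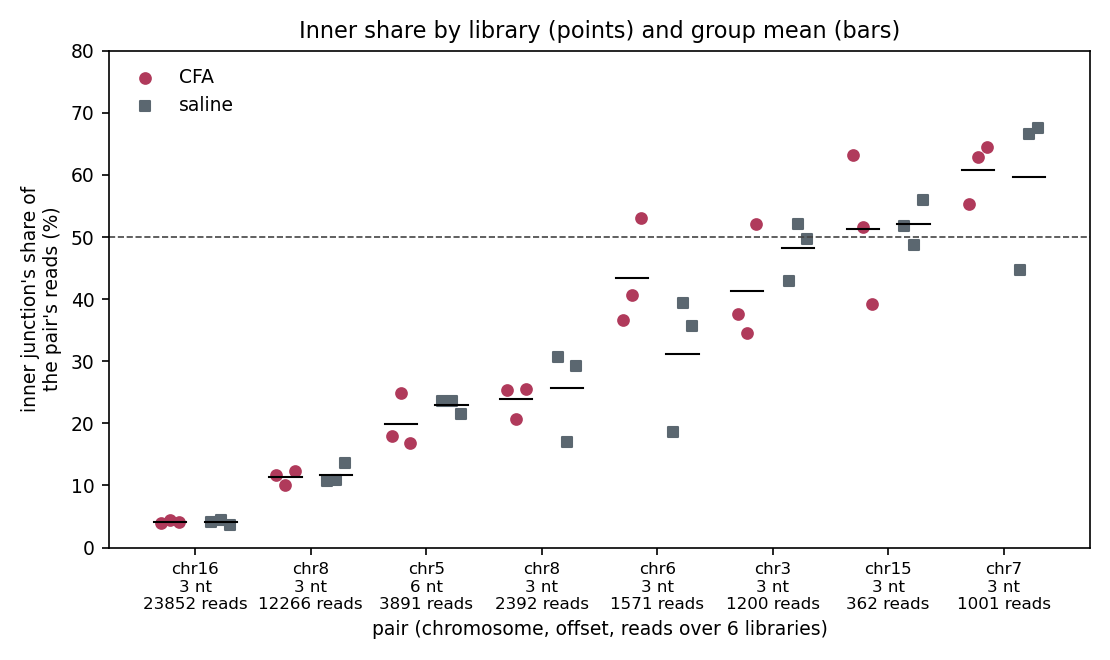
Inner junction's share of the pair's reads (y axis, %) in each library (points: circles for CFA, squares for saline) with the group mean (bars), for 8 pairs named by chromosome, offset and reads. The dashed line marks an even split. The chromosome 16 pair stays between 3.65% and 4.46%, while the 4 pairs at the right cross the dashed line.

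The pairs with the most reads were split far more unevenly. On chromosome 9 the donor pair chr9:94463647-94481167 had 9170, 9174 and 11664 reads at its outer junction in the CFA libraries and 9308, 17752 and 12194 in the saline libraries. Its inner junction had 0, 0 and 8 reads in the CFA libraries and 4, 4 and 4 in the saline libraries, or 0.0289% of the pair's reads. On chromosome 3 the acceptor pair chr3:54547246-54566332 had 2802, 1826 and 4517 outer reads in the CFA libraries and 2057, 4016 and 2643 in the saline libraries. Its inner junction, 4 nt away, had 11, 4 and 14 reads in the CFA libraries and 0, 7 and 5 in the saline libraries. The minor junction was thus listed in 4 of 6 libraries on chromosome 9 and in 5 of 6 on chromosome 3. The acceptor pairs with an AAG triplet at chr14:7186515-7190518 and a GAG triplet at chr4:22532122-22561809 had inner shares of 0.237% and 0.102%.

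On chromosome 7 a cluster of 4 circles surrounded 1 circle that held nearly all reads. The leading circle chr7:30727478-30735182 had 9101, 6230 and 8753 reads in the CFA libraries and 5308, 12359 and 16086 in the saline libraries. The circle with the acceptor 4 nt inside, chr7:30727482-30735182, had 19, 14 and 18 reads in the CFA libraries and 21, 24 and 23 in the saline libraries. A donor 3 nt inside gave 6, 0 and 0 reads in the CFA libraries and 10, 0 and 5 in the saline libraries, and a donor 4 nt outside, which adds GTAA to the circle, gave 0, 0 and 3 reads in the CFA libraries and 0, 0 and 5 in the saline libraries. The shifted acceptor was seen in 6 of 6 libraries and the shifted donors in 3 of 6 and 2 of 6. A second circle that ends at the same tandem donor, chr7:30714506-30735182, held 21912 reads, and its partner with the donor 4 nt outside held 4 reads, all in CFA library 3. In the other cluster of 4, at chr1:204959173-204961691, the outermost acceptor held 32774 reads and the acceptors inside it held 12, 4 and 5.

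In 1 pair with both ends shifted, the 2 entries were the same ring. The circles at chr10:2976996-2982188 and chr10:2977000-2982192 (-) are both 425 nt long, and their circular sequences are identical with the start moved, so a read across either junction has the same letters. The entry at chr10:2976996-2982188 had 0, 0 and 0 reads in the CFA libraries and 0, 19 and 0 in the saline libraries, and chr10:2977000-2982192 had 0, 0 and 12 reads in the CFA libraries and 15, 0 and 3 in the saline libraries. No library had reads at both entries. This was the only such pair among the 332 that differ at 1 end and the 3 that differ at both.

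At most tandem sites the same side led across circles. The 332 pairs that differ at 1 end used 284 distinct tandem sites, and 37 sites were used by at least 2 pairs. At 33 sites with at least 2 pairs of 20 reads or more, the same side led in every pair at 31 sites and different sides led at 2. Since the outer circle led 192 of 249 acceptor pairs with at least 20 reads, agreement is frequent between any acceptor pairs. Neither agreement nor the range of shares was computed for pairs of different sites. The inner share ranged over a median of 7.01 percentage points between circles of 1 site, under 10 points at 18 sites, and by 42.5 points at most. Circles that share a site come from the same libraries and often from the same exons.

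The following sites were chosen after their values were seen, as examples of both cases. On chromosome 4 a donor at position 66196285 (+) lay 6 nt outside the leading donor of 4 circles, with GTAAGT between them, and the inner shares were 86.0%, 81.7%, 93.4% and 78.6%. An acceptor on chromosome 11 at position 66875558 (-) trailed the inner acceptor in 3 circles with inner shares of 81.3%, 78.6% and 81.5%. At the chromosome 8 acceptor described above 4 circles had inner shares of 11.6%, 24.3%, 19.7% and 34.3%. Their pairs had 12266, 2392, 806 and 35 reads. The CAG acceptor on chromosome 16 at position 7146272 (+) was led by the outer side in 1 circle, with an inner share of 22.1%. In another it was led by the inner side, with 63.5%. These pairs had 457 and 74 reads. The widest range was on chromosome 12 at position 23962944 (+), with inner shares of 53.2% and 95.8% in pairs of 154 and 71 reads. The outer circle of the second pair held 3 reads. The part of counting error in these shares was not tested.

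**Figure D5:**
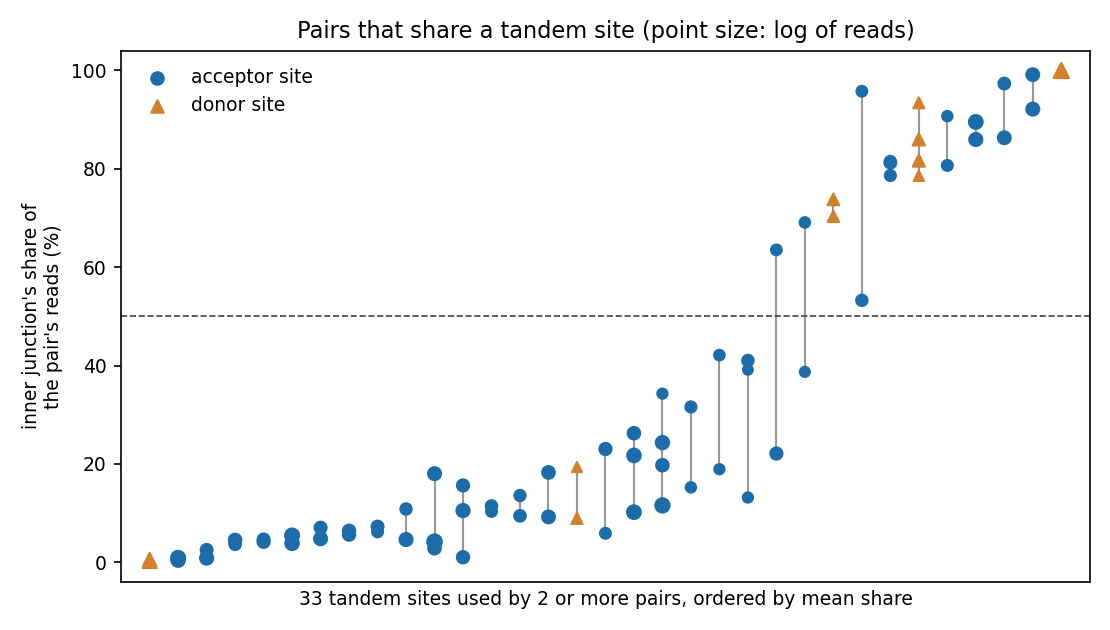
Inner junction's share of the pair's reads (y axis, %) for pairs with at least 20 reads at 33 tandem sites used by 2 or more pairs (x axis, ordered by mean share). Points joined by a line are circles that share a site, circles mark acceptors and triangles donors, and larger points have more reads. Lines are short at many sites (18 of 33 under 10 points), and 2 lines cross the dashed line of an even split.

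The spliced sequences often differed beyond the junction. In 141 of the 332 pairs that differ at 1 end, the circles were identical apart from the extra bases, and in 191 (57.5%) they also differed inside. Of those 191, 188 had no tie in reads, and the leading circle was the longer one in 158 and the shorter one in 27, with a median difference of 136 nt. The outer circle was the longer one in 138 of the 191 and the inner circle in 50, and length and side were not separated. The spliced sequences are those listed in the deposited file. For example, the outer chromosome 16 circle at chr16:23555919-23600154 is 617 nt long and its inner partner 539 nt, although their junctions are 3 nt apart. Junction reads show only the back-splice, so a pair's split says nothing of the exons inside.

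The choice of junction was next compared between CFA and saline rats, the contrast the series was made for. In bulk tissue, fewer cells of a type and less RNA per cell cannot be told apart. In the edgeR quasi-likelihood test with Benjamini-Hochberg adjustment, 28 of 22426 circRNAs with at least 10 reads passed an adjusted p of 0.05 (0.125%), and 1 of 537 near-identical circRNAs did (0.186%). At an unadjusted p below 0.05 the counts were 16 of 537 near-identical circRNAs (2.98%) and 602 of all 22426 (2.68%), so their share was close to that of the table. The median log2 fold change of the near-identical circRNAs was -0.07, with 44.7% above 0, against -0.05 and 47.4% for all circRNAs tested.

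The circRNA that passed was the inner circle of the AAG pair on chromosome 6, chr6:15082851-15085801. No read was listed for it in the 3 CFA libraries (0, 0 and 0), against 0, 35 and 46 reads in the saline libraries, so it was listed at 0 in all CFA libraries and in saline library 1. With reads pooled over each group and 3 counts as a floor for CFA, the pooled CFA level was at least 22.2-fold lower. This ratio takes no account of the spread between animals, and its 81 saline reads came from saline libraries 2 and 3 alone. The adjusted p of the circRNA was 0.0143 by edgeR (14 of 22426 circRNAs were called lower, 0.0624%). The call was lost without saline library 2 (adjusted p = 0.427 by edgeR), without saline library 3 (adjusted p = 0.9999 by edgeR) and in DESeq2. The outer circle of the pair had 424, 0 and 290 reads in the CFA libraries and 339, 593 and 27 in the saline libraries. Summed over both junctions, the pair had 424, 0 and 290 reads in the CFA libraries and 339, 628 and 73 in the saline libraries, with a log2 fold change of -0.30 ± 1.87 (SE) and an adjusted p of 1 in edgeR. CFA library 2 listed no read of either junction.

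When the reads of each cluster were summed, no cluster passed. In edgeR 27 of 22223 rows of the merged table were called (0.121%), 0 of 334 clusters among them, and DESeq2 called 4 of 22223 rows (0.018%) and also 0 clusters. At an unadjusted p below 0.05 there were 14 of 334 clusters (4.19%) in edgeR, against 598 of 22223 rows (2.69%), and 6 clusters (1.8%) in DESeq2, against 380 rows (1.71%). Without CFA library 3, edgeR called 1 cluster, named here after its values were seen, at chr15:39638281-39649001 with its donor 5 nt inside (log2 fold change -3.33 ± 0.79, SE, adjusted p = 0.0162), which had 7, 0 and 142 reads in the CFA libraries and 53, 9 and 64 in the saline libraries and a log2 fold change of 0.09 ± 1.92 with all 6. The lowest p was at chr16:4222176-4283627 with its acceptor 4 nt inside, which together had 76, 71 and 71 reads in the CFA libraries and 26, 56 and 2 in the saline libraries. All 3 CFA libraries were above the saline libraries in reads, with a log2 fold change of 1.65 ± 0.47 (SE) and an adjusted p of 0.216 by edgeR. The other clusters with the smallest p had log2 fold changes of 1.29 ± 0.45 at chr4:66470390-66473208, -2.36 ± 0.83 at chr3:2021173-2037656 and -1.61 ± 0.69 at chr11:34064815-34070810, each with an adjusted p of 0.913 by edgeR.

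No near-identical circRNA passed a test of the split itself. The edgeR diffSpliceDGE test of each junction's use within its cluster called 0 of 426 circRNAs in 212 clusters (0%), and 3 (0.704%) had an unadjusted p below 0.05. In 210 pairs with 5 reads in every library, the inner share did not overlap between CFA and saline rats in 10 (4.76%), and no pair had 1 junction leading all CFA libraries and the other all saline libraries. Where the group makes no difference, 3 libraries separate fully from 3 others with a probability of 0.1 if no values are tied. The 10 pairs are therefore not read as differences between the groups. The sums of CFA and saline libraries were led by different junctions in 5 pairs.

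The pairs with the smallest p for the split rested on few reads. At chr16:78565538-78572721 the donor 8 nt inside had 9, 8 and 3 reads in the CFA libraries and 0, 0 and 0 in the saline libraries, while the outer donor had 0, 7 and 0 in the CFA libraries and 5, 3 and 15 in the saline libraries. At chr1:22735614-22738713 the inner acceptor had 0, 0 and 0 reads in the CFA libraries and 13, 7 and 3 in the saline libraries, beside 29, 86 and 31 outer reads in the CFA libraries and 73, 28 and 47 in the saline libraries. The inner junction was thus listed in 1 group only in both pairs. At chr10:37167400-37181064 the inner acceptor had 0, 0 and 0 reads in the CFA libraries and 10, 5 and 7 in the saline libraries. The inner acceptor at chr9:89712211-89719318 had 18, 8 and 5 reads in the CFA libraries and 0, 0 and 0 in the saline libraries. Adjusted over all 426 circRNAs, the edgeR p was 0.9997 for each of these.

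Over whole libraries no difference between CFA and saline rats passed a test. Near-identical circRNAs held 10.2% ± 0.430 of circRNA reads in CFA rats and 10.4% ± 0.122 in saline rats (SD, n = 3 each), with p = 0.6 in the exact two-sided permutation test. The junction that led in the other 5 libraries also led in 91.2%, 95.1% and 93.1% of pairs in CFA libraries and 91.7%, 90.3% and 90.8% in saline libraries (p = 0.2, exact two-sided permutation test). Its median share of a pair's reads was 99.0%, 100% and 97.2% in CFA libraries and 100%, 94.3% and 95.9% in saline libraries (p = 0.3, exact two-sided permutation test). The circle with the shorter spliced sequence led 19.8% ± 0.796 of pairs in CFA rats and 19.6% ± 2.51 in saline rats (p = 1, n = 3 each, exact two-sided permutation test). With 3 animals against 3 these tests cannot go below 0.1. The median share was highest in libraries with fewer reads, such as saline library 1 with 573696 and CFA library 2 with 651615, and the part of depth in it was not tested.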

How the data were processed

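Thalamus RNA of 6 rats was analysed, 3 per group. Poly-T beads, fragmentation, random hexamers and PCR are named in the labels' protocols, while circRNAs lack a poly(A) tail and no RNase R step is named. The submitters' processing notes name DESeq2 1.20.0, featureCounts 1.5.0-p3, HISAT2 2.0.5 and StringTie 1.3.3b. No source used here names the circRNA caller or genome build. The authors deposited, per the file headers, read counts per circRNA. Beside them they deposited a value headed TPM that is an RPM, scaled to 1000000 reads per library without a length term. It was not used here, and RPM were computed from the counts. Starts, counted from 0 in the sequence file, had 1 added. Identifiers listed at 2 junctions (44) kept 1 count and were left out of the accounts by offset.

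Counts summing to at least 10 were tested with edgeR 4.0.16 (R 4.3.3; TMM, robust quasi-likelihood, Benjamini-Hochberg over the whole table, threshold 0.05), with DESeq2 1.42.0 as an alternative. The split between junctions used edgeR's diffSpliceDGE, and library values used exact permutation or sign-flip tests that list every arrangement. Wilson intervals were computed with SciPy 1.17.1. Standard errors are approximate, from the fold change (log2) and F. Scripts were tested on simulated data. Clusters were named by rule: most reads, most trailing reads, called or smallest p, a changing leader, each kind of offset, and the most members. The members and lists were chosen with earlier results of these data known. Planned marker lists and host names could not be used, since no file ties circles to genes.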

Additional observations from a re-analysis of the deposited data

How the results depend on the processing

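The count of 28 called circRNAs became 0 with filterByExpr, 0 with at least 30 counts and 4 in DESeq2, and leaving out 1 library gave 15 to 40, the lowest without saline library 1. The 1 near-identical circRNA called became 0 with filterByExpr, with at least 30 counts, without robust fitting and in DESeq2, and leaving out 1 library gave 0 to 2, with 2 without CFA library 3 and 0 without saline library 3. Leaving out 1 library gave 0 to 1 merged clusters called, with 1 without CFA library 3. The count of 0 in the test of the split held in all 13 alternatives run.

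The same-numbered libraries did not deviate together (r = 0.02, -0.00 and -0.07 for numbers 1, 2 and 3), and 1 of 6 libraries correlated best with its own number in the other group, so the numbers were not taken to pair the rats. Adding the replicate block raised the called circRNAs to 45, with 1 near-identical circRNA among them that is not the chromosome 6 circle (adjusted p = 0.273 by edgeR), and called 1 merged cluster, chr16:4222176-4283627 (log2 fold change 2.15, adjusted p = 0.0474 by edgeR), and 0 in the split. With the block the difference in read share was -0.214 percentage points (exact p = 0.25).

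The excess of near-identical circRNAs seen was 10.9 to 11.7 points when 1 library was left out. The same circRNAs enter each library, so the planned sign-flip p is not read. CFA minus saline differences in read share were -0.374 to 0.03 points, and in pairs led by the shorter circle -1.31 to 1.46, so both changed sign. The second difference was -0.324 at a window of 5 nt and -0.499 by genomic span, an alternative chosen after seeing the data, against 0.141 as reported. The log2 fold change of the summed chromosome 6 pair, -0.30 as reported, ranged over -1.27 to 0.29 when 1 library was left out, above 0 without CFA library 2 (0.29) and without saline library 2 (0.05). The cause was not tested. Depth limits the trailing junctions: their median was 15 reads over 6 libraries.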

Other observations

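The sequence file lists 44 circRNA identifiers at 2 junctions each, with 1 count per library, so 17 near-identical circRNAs and 27 others cannot be split by junction. In 43 of them the 2 junctions lay on 1 strand exactly 2 nt apart, 36 at the acceptor end and 7 at the donor end, and the 2 extra bases were AG or GT in 43 of 43. These identifiers held 21509 reads, 0.439% of all. The largest, chr6:105078168-105080571 (-), had 537, 288 and 1039 reads in the CFA libraries and 710, 1380 and 506 in the saline libraries. The remaining identifier, chr19:43119868-43124021, was listed on both strands, with 471, 460 and 578 reads in the CFA libraries and 397, 704 and 604 in the saline libraries. Some of these identifiers share both junctions with another identifier, so offsets of 2 nt occur in these data only where an identifier is listed at 2 junctions.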
